A study of Cricetulus griseus with 24 samples.

Results

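The SPAK and OSR1 kinases, their scaffold proteins, 1 of the WNK kinases that switch them on and the ubiquitin ligase scaffold that limits WNK abundance were followed as 6 named genes, Oxsr1, Stk39, Cab39, Cab39l, Wnk4 and Cul3. They were taken by gene name from the 26776 gene names counted in each of 2 RNA-seq experiments, and 6 of 6 passed the filter on low counts in both. Only 3 of the 6, Oxsr1, Stk39 and Wnk4, encode kinases. Wnk1 was not analysed here.

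WNK kinases bind chloride in their catalytic site, and bound chloride keeps them inactive. When chloride inside the cell falls or the cell shrinks, active WNK kinases phosphorylate SPAK (encoded by Stk39) and OSR1 (encoded by Oxsr1). With the MO25 scaffold proteins (encoded by Cab39 and Cab39l), these activate the sodium, potassium and chloride cotransporter NKCC1 (encoded by Slc12a2) and inhibit the potassium and chloride cotransporters. Cullin 3 (encoded by Cul3) joins the adaptors KLHL2 and KLHL3 in a ligase that marks WNK kinases for degradation. Most of this regulation acts on proteins, and the values here are transcript levels.

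The cells were LR73 phagocytes, a Chinese hamster line that the labels place among cultured fibroblasts, and the targets were human Jurkat T lymphoma cells made apoptotic with ultraviolet C light (1500 mJ, then 4 h in culture). The first experiment held 16 libraries in 4 groups of 4: phagocytes alone (control), phagocytes with cytochalasin D, an inhibitor of actin filament growth that blocks engulfment, phagocytes given apoptotic cells, and phagocytes given both. The second held 4 libraries each of Slc12a2-sufficient (wildtype) and Slc12a2-deficient LR73 phagocytes, all given apoptotic cells for 2 h and sorted for CypHer5E, a dye that lights up in acid compartments and marks cells that have engulfed a target. The sources used here do not state how Slc12a2 was removed, how many clones were used, or how long co-culture lasted in the first experiment. The design text calls the libraries of each condition biological replicates.

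The first experiment's libraries held 8272232 to 18911353 counted fragments, and those of the second held 22758587 to 28450594. Of 12 fibroblast markers, 11 had a row and 6 reached a mean of 1 CPM (CPM being the count relative to a library's scaled total) in control cells, led by Vim at 4334 CPM, while the collagen genes Col1a1 and Col1a2 did not. Slc12a2 stood between 91.3 and 103 CPM in the wildtype libraries and between 22.5 and 26.2 CPM in the deficient libraries, so each library carried the level its label calls for. 3 libraries of the first experiment, control 4, cytochalasin D 1 and the fourth with both treatments, lay farthest out on the third principal component (10.4% of variance). Results that rest on them are given with and without them.

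Per length of counted exon, Oxsr1 was the most abundant of the 6 genes in every group and Wnk4 the least. In control cells the means were 103.4 ± 4.59 CPM per kb for Oxsr1, 37.3 ± 2.14 for Cul3, 33.8 ± 1.30 for Cab39, 33.1 ± 1.70 for Stk39, 9.01 ± 0.817 for Cab39l and 5.16 ± 0.147 for Wnk4 (SD, n = 4). The libraries of Cul3 and Cab39 overlapped, Cab39 and Stk39 differed by less than their SD, and the order of these genes differed in the group with apoptotic cells, where Stk39 stood at 35.3 ± 1.12 and Cul3 at 35.2 ± 2.37 CPM per kb. The highest and lowest members differed 20.1-fold per length in control cells and 38.2-fold in wildtype cells of the second experiment. The counted exon lengths were 4280 bases for Oxsr1, 3813 for Cul3, 3398 for Cab39, 3019 for Stk39, 1406 for Cab39l and 3956 for Wnk4, and no other row of the table had an exon that overlapped theirs. Fewer counted bases can lower a gene's count, and the shortest, Cab39l, was counted with 100 to 252 fragments per library in the first experiment and 350 to 924 in the second.

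**Figure D1:**
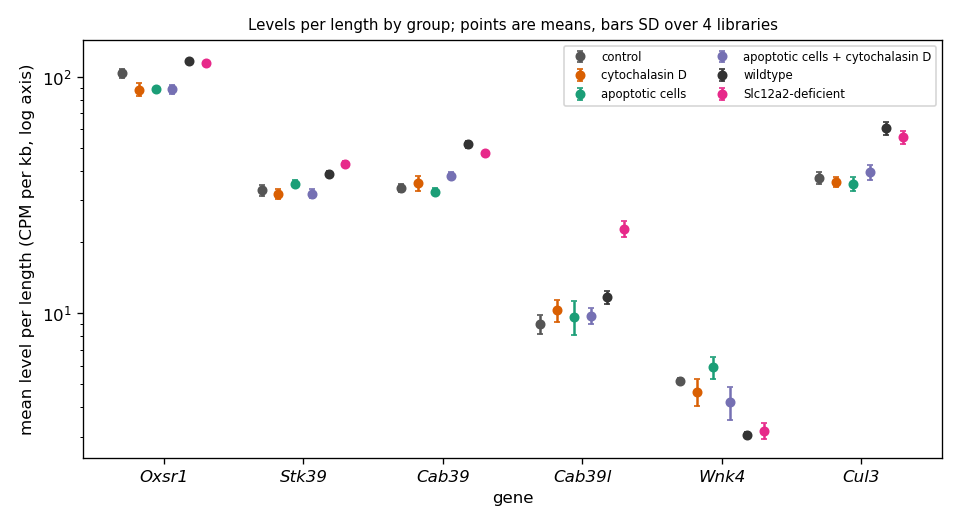
Mean level per length (CPM per kb of counted exon, log axis) of each gene in the 6 groups, with bars for the SD over 4 libraries. Oxsr1 sits highest in every group and Wnk4 lowest, and Cab39l in Slc12a2-deficient cells (22.8) stands apart from its level in the other groups (9.01 to 11.7).

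OSR1, like SPAK, phosphorylates cation and chloride cotransporters. The OSR1 transcript was lower in all 3 treated groups of the first experiment than in control cells. Oxsr1 was 432.9, 427.2, 438.4 and 471.1 CPM in control libraries 1 to 4, and 380.6, 390.9, 378.8 and 376.5 CPM with apoptotic cells. With cytochalasin D it was 354.8, 374.1, 371.9 and 410.6 CPM, and with both 366.9, 364.6, 388.9 and 395.4 CPM. Every control library was above every treated library, and the 3 treated groups overlapped one another.

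Oxsr1 was 1.16-fold lower with apoptotic cells (log2 -0.21, SE 0.04, edgeR adjusted p = 0.00197), 1.17-fold lower with cytochalasin D (log2 -0.23, SE 0.04, edgeR adjusted p = 0.000324) and 1.17-fold lower with both (log2 -0.22, SE 0.04, edgeR adjusted p = 0.000364). These comparisons share the 4 control libraries and are not independent of each other. In bulk RNA, less RNA per cell and fewer cells of a type cannot be told apart. Once cytochalasin D was present, apoptotic cells left Oxsr1 at 379 ± 15.5 against 377.8 ± 23.5 CPM (log2 0.00, 95% interval -0.09 to 0.09, edgeR adjusted p = 0.97), and cytochalasin D with apoptotic cells gave log2 -0.01 (95% interval -0.10 to 0.08, edgeR adjusted p = 0.886). In order, control (442.4 ± 19.7 CPM) stood above apoptotic cells (381.7 ± 6.36), both (379 ± 15.5) and cytochalasin D (377.8 ± 23.5), and the last 3 did not differ beyond their spread.

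The effect of apoptotic cells on Oxsr1 differed with and without cytochalasin D by log2 -0.22 (SE 0.06, edgeR adjusted p = 0.044), where 4.56% of all genes tested were called (3.03% lower, 1.53% higher). This call was close to the threshold. It was lost without any one of 11 of the 16 libraries, namely control 1, 3 or 4, cytochalasin D 1, 2 or 3, apoptotic cells 1, 3 or 4, and both 3 or 4, with log2 values from -0.23 to -0.19 and edgeR adjusted p from 0.0617 to 0.0932. Without the 3 outlying libraries together the difference was log2 -0.14 (edgeR adjusted p = 0.309). With each library's trend in gene length removed it was log2 -0.16 (edgeR adjusted p = 0.0836). The lower Oxsr1 level against control, in contrast, passed the test in each of these refits, with log2 values between -0.27 and -0.16.

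**Figure D2:**
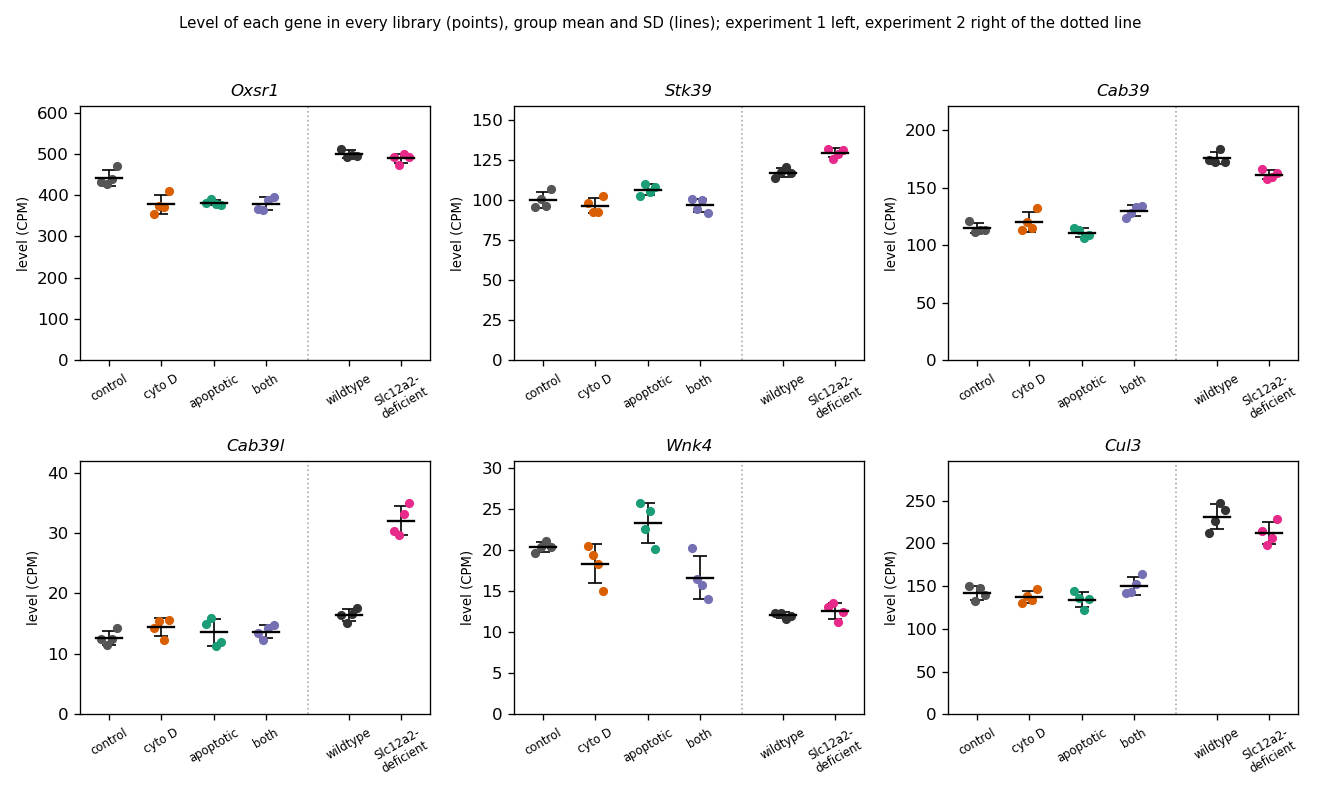
Level in CPM of the 6 genes in every library (points), with the group mean (wide line) and SD (bars), for the 4 groups of the first experiment and the 2 of the second. Control libraries of Oxsr1 lie between 427.2 and 471.1 CPM, above all treated libraries, and Cab39l in Slc12a2-deficient libraries lies between 29.7 and 34.9 CPM, above all wildtype libraries.

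Stk39 encodes SPAK, the close relative of OSR1 with the same substrates. It was 96.0, 100.9, 96.2 and 106.9 CPM in control libraries, 98.3, 92.6, 92.8 and 102.6 with cytochalasin D, 102.5, 110.3, 105.3 and 108.1 with apoptotic cells, and 100.5, 94.3, 100.1 and 92.2 with both. The control and apoptotic groups overlapped, whereas every library with both treatments was below every library with apoptotic cells alone. Cytochalasin D with apoptotic cells lowered Stk39 1.10-fold (log2 -0.14, SE 0.05, edgeR adjusted p = 0.0392). This call was lost without apoptotic library 2, 3 or 4 or library 2 or 4 with both (edgeR adjusted p from 0.0597 to 0.108), without the 3 outlying libraries (edgeR adjusted p = 0.122) with the replicate number as a block (edgeR adjusted p = 0.0512) and with no filter on low counts (edgeR adjusted p = 0.0864). Apoptotic cells against control gave log2 0.09 (95% interval -0.01 to 0.20, edgeR adjusted p = 0.223) and cytochalasin D against control log2 -0.05 (95% interval -0.15 to 0.05, edgeR adjusted p = 0.536).

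Oxsr1 made up 75.7% ± 0.593 of the summed per-length level of the pair Oxsr1 and Stk39 in control cells (SD, n = 4). The share was 73.4% ± 1.05 with cytochalasin D, 71.7% ± 0.552 with apoptotic cells and 73.4% ± 1.30 with both. All 4 libraries with apoptotic cells (71.1% to 72.4%) lay below all 4 control libraries (74.9% to 76.3%). So did all 4 with cytochalasin D (71.8% to 74.0%), whereas those with both (72.0% to 75.2%) overlapped control. This share is given as a description, with no test of its own.

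MO25 scaffolds hold SPAK and OSR1 in their active shape, and Cab39 encodes the major form, MO25 alpha. Cab39 was 121.4, 111.5, 113.3 and 113.4 CPM in control libraries and 114.6, 113.2, 106.6 and 109.1 CPM with apoptotic cells. It was 113, 120.3, 114.9 and 132.7 CPM with cytochalasin D and 123.6, 128.4, 133.1 and 134.1 CPM with both. Each library with both treatments was above each control library and each library with apoptotic cells alone. Cytochalasin D with apoptotic cells raised Cab39 1.17-fold (log2 0.23, SE 0.05, edgeR adjusted p = 0.00129), a call that held with each compared library left out in turn (edgeR adjusted p from 0.00145 to 0.00848).

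Against control, Cab39 was 1.13-fold higher with both treatments (log2 0.17, SE 0.05, edgeR adjusted p = 0.0121). That call was lost narrowly without library 3 or 4 with both (edgeR adjusted p = 0.0519 and 0.0503) and without the 3 outlying libraries (edgeR adjusted p = 0.066). Apoptotic cells under cytochalasin D gave log2 0.11 (95% interval 0.00 to 0.21, edgeR adjusted p = 0.202), which passed only without cytochalasin D library 4 (log2 0.16, edgeR adjusted p = 0.0326). Leaving out the same library also brought the difference between the apoptotic cell effects past the threshold for Cab39 (log2 -0.21, edgeR adjusted p = 0.0372, against log2 -0.16 and 0.191 with all libraries). Neither single treatment passed against control (edgeR adjusted p = 0.54 for apoptotic cells and 0.383 for cytochalasin D). The order of means was both (129.8 ± 4.83 CPM), cytochalasin D (120.2 ± 8.87), control (114.9 ± 4.42) and apoptotic cells (110.9 ± 3.69), and no neighbouring pair in it passed the test.

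Cab39l encodes the second form, MO25 beta. In the first experiment its libraries ranged from 11.3 to 15.9 CPM over all groups, all groups overlapped, and none of its comparisons passed the test (edgeR adjusted p from 0.246 to 0.891). The group means were 14.4 ± 1.54 CPM with cytochalasin D, 13.7 ± 1.10 with both, 13.6 ± 2.23 with apoptotic cells and 12.7 ± 1.15 in control cells. For cytochalasin D against control the 95% interval ran from log2 -0.05 to 0.44.

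WNK4 is best known in the kidney, where it sits upstream of SPAK. Per length of counted exon, its transcript was the scarcest of the 6. Wnk4 was 19.7, 20.4, 21.1 and 20.4 CPM in control libraries, 25.7, 22.6, 24.8 and 20.2 with apoptotic cells, 20.6, 19.5, 18.4 and 15.0 with cytochalasin D, and 20.3, 16.4, 15.8 and 14.1 with both. The group with apoptotic cells was the highest and the group with both the lowest, overlapping only through apoptotic library 4 and library 1 with both. Cytochalasin D with apoptotic cells lowered Wnk4 1.39-fold (log2 -0.47, SE 0.11, edgeR adjusted p = 0.00212), the largest of the members' changes in the first experiment, and the call held with each compared library left out in turn (log2 -0.60 to -0.40, edgeR adjusted p up to 0.0112).

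Wnk4 stood at 23.3 ± 2.48 CPM with apoptotic cells against 20.4 ± 0.582 in control cells (log2 0.19, 95% interval -0.03 to 0.42, edgeR adjusted p = 0.258). With both treatments against control it gave log2 -0.28 (SE 0.11, edgeR adjusted p = 0.0702). That comparison passed the test without library 1 with both (log2 -0.41, edgeR adjusted p = 0.0106), with the replicate number as a block (log2 -0.29, edgeR adjusted p = 0.03) and in a fit of only the 8 libraries compared (log2 -0.285, edgeR adjusted p = 0.0492). Its response to apoptotic cells differed without and with cytochalasin D by log2 0.32 (95% interval -0.01 to 0.64, edgeR adjusted p = 0.245). No neighbouring pair in the order apoptotic cells, control, cytochalasin D and both passed the test.

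Cul3 encodes the scaffold of the ligase, which also serves many adaptors outside this pathway. Cul3 was 149.9, 132.2, 148 and 139.4 CPM in control libraries, 130.5, 138.3, 134.3 and 146.3 with cytochalasin D, 143.9, 135.9, 122.1 and 135.1 with apoptotic cells, and 141.5, 142.8, 153.1 and 163.9 with both. The groups overlapped in every comparison. Cytochalasin D with apoptotic cells raised Cul3 1.12-fold (log2 0.16, SE 0.06, edgeR adjusted p = 0.0307). The call was lost without apoptotic library 2, 3 or 4 or library 3 or 4 with both (edgeR adjusted p from 0.053 to 0.166) and without the 3 outlying libraries (log2 0.12, edgeR adjusted p = 0.13). The order of means was both (150.3 ± 10.4 CPM), control (142.4 ± 8.16), cytochalasin D (137.4 ± 6.79) and apoptotic cells (134.3 ± 9.03), with neighbours closer than their spread.

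Over the 6 genes, the counts of calls are read against the share of all genes called. With apoptotic cells 1 of 6 was called lower and 0 higher, where 13.7% of 13106 genes tested were called (6.68% lower, 6.97% higher). With cytochalasin D 1 was called lower, where 26.3% of all genes were called (12.8% lower, 13.5% higher). With both treatments 1 rose and 1 fell, where 26.5% of all genes were called (13.7% higher, 12.8% lower). Cytochalasin D with apoptotic cells had 2 members higher and 2 lower, where 32.5% of all genes were called (16.4% higher, 16.1% lower). Apoptotic cells under cytochalasin D had 0 calls by edgeR, DESeq2 and limma-voom, with 2 members at an unadjusted p under 0.05, where 8.61% of all genes were called by edgeR (4.82% higher, 3.79% lower). The groups did not overlap for 1 member with apoptotic cells (19.6% of all genes), 1 with cytochalasin D (24.3%), 2 with both against control (27.8%), 2 for cytochalasin D with apoptotic cells (32.1%) and 0 for apoptotic cells under cytochalasin D (13.5%).

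**Figure D3:**
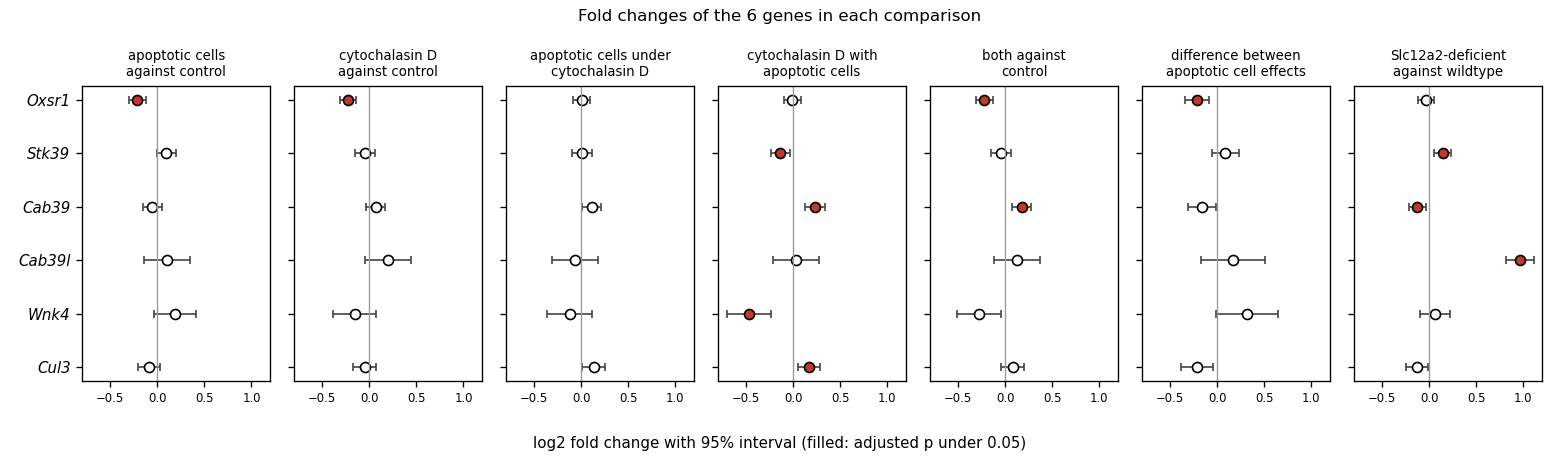
Log2 fold change of each gene in the 7 comparisons, with its 95% interval, and filled points where the edgeR adjusted p was under 0.05. Oxsr1 lies near -0.2 in the 3 comparisons with control, Wnk4 at -0.47 for cytochalasin D with apoptotic cells, and Cab39l at 0.96 for Slc12a2-deficient against wildtype.

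Libraries with apoptotic cells also held more RNA of T lymphocyte genes. The 16 T lymphocyte markers summed to 42.7 to 46.4 CPM with apoptotic cells and 34.8 to 37.2 CPM in control cells, with 12 and 6 of 16 markers counted at all, and Tcf7 made most of the control sum at 23.7 CPM. Of 6 markers measured, 3 were called higher with apoptotic cells by edgeR: Lck, at 3.20 ± 0.277 against 0.0259 ± 0.0519 CPM in control cells (adjusted p = 1.37e-07), Zap70, at 3.35 ± 1.41 against 0.0130 ± 0.0259 CPM (adjusted p = 1.15e-06), and Lef1, at 1.68 ± 0.360 CPM against 0 in every control library (adjusted p = 2.75e-06). The defining markers Cd3d, Cd3e, Cd3g and Cd247 were at 0 in control cells, and Cd3g and Cd247 also with apoptotic cells. With both treatments the sum was 42.0 to 46.5 CPM and with cytochalasin D 30.8 to 37.1 CPM. The part of Jurkat RNA in the members' levels was not tested. Beside the cytochalasin D results, fibroblast markers summed to 4133 to 4788 CPM against 5228 to 5766 in control cells, and to 4198 to 4668 CPM with both treatments against 6412 to 6920 with apoptotic cells. Vim made most of each sum, and with apoptotic cells it was the 1 of 7 measured fibroblast markers that passed (log2 0.32, edgeR adjusted p = 0.000284). Dcn (log2 -0.35), Pdgfra (-0.13) and Fn1 (-0.06) had negative values, and Col3a1 (0.61), Pdgfrb (0.18) and S100a4 (0.05) positive ones. Cytochalasin D against control lowered 2 of the 7 and raised 0, where 12.8% of all genes were called lower. Cytochalasin D with apoptotic cells lowered 4 and raised 0, where 16.1% of all genes were called lower. The part of these markers in the results was not tested either.

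In the second experiment, where all cells had engulfed apoptotic targets, the largest difference among the 6 genes was in Cab39l. It was 16.4, 15.1, 16.6 and 17.5 CPM in wildtype libraries 1 to 4 and 30.3, 29.7, 33.2 and 34.9 CPM in Slc12a2-deficient libraries. The lowest deficient library was far above the highest wildtype library. Cab39l was 1.95-fold higher in deficient cells (log2 0.96, SE 0.07, 95% interval 0.82 to 1.11, edgeR adjusted p = 2.51e-08). The value stayed between log2 0.93 and 1.00 with each library left out in turn and between 0.96 and 0.97 under the other 7 alternatives.

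The other scaffold gene went the opposite way by a small amount. Cab39 was 174.5, 172.5, 183.9 and 172.6 CPM in wildtype and 166, 157.5, 159.6 and 162.4 CPM in deficient libraries, without overlap. It was 1.09-fold lower in deficient cells (log2 -0.12, SE 0.04, edgeR adjusted p = 0.0258). That call was lost without wildtype library 1, 2 or 3 or deficient library 3 (edgeR adjusted p from 0.0558 to 0.101) and with no filter on low counts (edgeR adjusted p = 0.0682). The share of Cab39l in the summed per-length level of both scaffolds was 18.4% ± 0.970 in wildtype and 32.4% ± 1.70 in deficient cells (SD, n = 4), and 20.3% to 22.7% in the group means of the first experiment. Cab39 thus remained the more abundant form in each library, by 1.92-fold at the least.

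**Figure D4:**
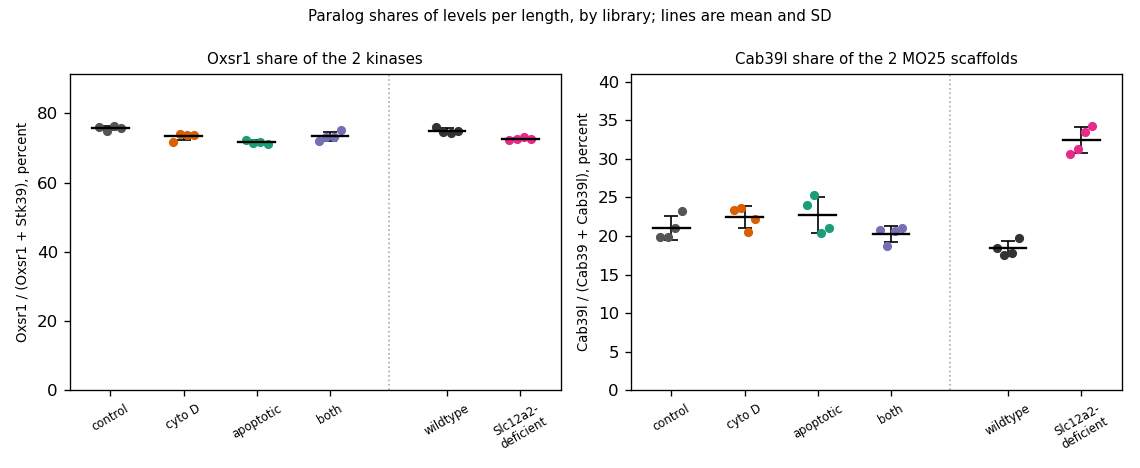
Share in percent of Oxsr1 in the summed level per length of Oxsr1 and Stk39 (left) and of Cab39l in that of Cab39 and Cab39l (right), by library, with group mean and SD. The Cab39l share is 30.6% to 34.2% in Slc12a2-deficient libraries and 17.5% to 19.7% in wildtype libraries.

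Of the kinases, Stk39 rose and Oxsr1 did not pass the test. Stk39 was 113.6, 117.4, 120.7 and 117.1 CPM in wildtype and 132.2, 125.8, 129 and 131.6 CPM in deficient libraries, with no overlap. It was 1.11-fold higher in deficient cells (log2 0.15, SE 0.04, edgeR adjusted p = 0.0107), and the call held with each library left out in turn (edgeR adjusted p from 0.00441 to 0.0325). Oxsr1 was 512.7, 493.5, 497.8 and 495 CPM in wildtype and 491.8, 473.7, 499.6 and 491.6 CPM in deficient libraries, which overlapped (log2 -0.03, 95% interval -0.11 to 0.05, edgeR adjusted p = 0.564). The Oxsr1 share of the pair was 75.1% ± 0.732 in wildtype and 72.7% ± 0.356 in deficient cells.

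Wnk4 was 12.3, 12.4, 11.6 and 12.0 CPM in wildtype and 13.1, 13.6, 11.3 and 12.5 CPM in deficient libraries (log2 0.06, 95% interval -0.10 to 0.23, edgeR adjusted p = 0.555). Its groups overlapped. Cul3 was 212.6, 226.7, 247.1 and 239.3 CPM in wildtype and 214.7, 197.9, 206.5 and 228.3 CPM in deficient libraries (log2 -0.13, SE 0.06, edgeR adjusted p = 0.0767). Cul3 also overlapped, and it passed the test without wildtype library 1 (edgeR adjusted p = 0.0346) and without deficient library 4 (edgeR adjusted p = 0.0321). It also passed with a block on library numbers 9 to 12 and 13 to 16 (edgeR adjusted p = 0.0275). With group means subtracted, wildtype and deficient libraries of the same block correlated between 0.0367 and 0.141. Those of different blocks correlated between -0.152 and -0.0256. The Cul3 call thus depended both on whether this block was in the fit and on which libraries were kept. What the block stands for was not tested.

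In all, 2 members rose and 1 fell with Slc12a2 deficiency, where 42.5% of 13050 genes were called (21.1% higher, 21.3% lower), and the groups did not overlap for 3 members, where they did not for 39.6% of all genes. Of 7 fibroblast markers measured, 6 were lower and 1 higher in deficient cells, and T lymphocyte markers summed to 23.2 to 28.0 CPM against 29.6 to 32.1 CPM in wildtype. Of 3 T lymphocyte markers measured, 1 was called higher, Tcf7, the most abundant (18.5 against 16.1 CPM). Lat (4.66 against 10.8 CPM) and Cd28 (1.36 against 3.92 CPM) were called lower. Lck, Zap70 and Lef1 did not pass the filter on low counts. The part of the fibroblast and T lymphocyte markers in the members' differences was not tested. Differences between clones cannot be told apart from the loss of Slc12a2.

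The partners around these genes were read from lists of pathway genes. Among the substrates, Slc12a4, a potassium and chloride cotransporter, rose 1.11-fold with cytochalasin D (edgeR adjusted p = 0.0351), 1.25-fold for cytochalasin D with apoptotic cells (edgeR adjusted p = 6.09e-05) and 1.16-fold in Slc12a2-deficient cells (edgeR adjusted p = 0.00193). Slc12a2 itself was 1.60-fold lower with cytochalasin D (edgeR adjusted p = 1.53e-05).

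Of the 6 other proteins that bind MO25, 5 were measured. Stk24, the kinase MST3, was 1.26-fold lower with cytochalasin D, both against control (edgeR adjusted p = 7.55e-07) and with apoptotic cells (edgeR adjusted p = 6.4e-07), and 1.14-fold lower in Slc12a2-deficient cells (edgeR adjusted p = 0.00147). Stk11, the kinase LKB1, was 1.24-fold lower for cytochalasin D with apoptotic cells (edgeR adjusted p = 0.00116). Stk25, the kinase YSK1, was 1.18-fold higher in deficient cells (edgeR adjusted p = 0.00261). With apoptotic cells alone none of the 5 passed the test (median log2 0.02), where 13.7% of all genes did.

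Of 18 genes of cullin ligases and WNK turnover, 16 were measured in the first experiment and 15 in the second. Of the adaptors that act on WNK kinases, Klhl3 did not pass the filter on low counts and Klhl2 passed the test in no comparison. Klhl2 gave log2 -0.13 with apoptotic cells (edgeR adjusted p = 0.246) and -0.06 in Slc12a2-deficient cells (edgeR adjusted p = 0.343). The genes named next serve cullin ligases more widely. Apoptotic cells lowered 2 and raised none (median log2 -0.04), where 6.68% of all genes were called lower and 6.97% higher: Klhl9, a Cullin 3 adaptor, was 1.24-fold lower (edgeR adjusted p = 0.000192) and Dcun1d1, which promotes cullin neddylation, 1.41-fold lower (edgeR adjusted p = 0.00241). Cytochalasin D with apoptotic cells raised 7 and lowered 1 (median log2 0.11), where 16.4% of all genes were called higher and 16.1% lower. The 1 was Keap1, the Cullin 3 adaptor for Nrf2, at 1.30-fold lower (edgeR adjusted p = 0.000201). Cytochalasin D against control raised 3 and lowered 3 (median log2 0.04), where 13.5% of all genes were called higher and 12.8% lower. Both treatments against control raised 3 and lowered 1, where 13.7% of all genes were called higher and 12.8% lower. Apoptotic cells under cytochalasin D raised 2 and lowered 0, where 4.82% of all genes were called higher and 3.79% lower. In Slc12a2-deficient cells 6 rose and 1 fell (median log2 0.06), where 21.1% of all genes were called higher and 21.3% lower, led by Cops5, a subunit of the COP9 signalosome that removes Nedd8 from cullins, at 1.44-fold higher (edgeR adjusted p = 6.41e-07). The other WNK kinases of the list, Wnk2 and Wnk3, did not pass the filter on low counts in either experiment.

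Sgk1, a kinase that acts upstream of WNK signalling, changed in every comparison: it was 2.73-fold higher with apoptotic cells (edgeR adjusted p = 5.76e-12), 4.33-fold higher with cytochalasin D (edgeR adjusted p = 2.17e-16) and 3.60-fold lower in Slc12a2-deficient cells (edgeR adjusted p = 1.24e-08). Of the 5 subunits of the volume-regulated chloride channel, 4 were measured, and in deficient cells, where 21.3% of all genes were called lower, 2 fell, Lrrc8c 1.42-fold (edgeR adjusted p = 2.17e-06) and Lrrc8a 1.34-fold (edgeR adjusted p = 0.000232). Under cytochalasin D Lrrc8a, the essential subunit, was 1.38-fold higher (edgeR adjusted p = 0.000138).

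Genes whose level moved most like each member were found by Pearson correlation of log2 CPM over the 16 libraries of the first experiment, among 8920 other named genes. These libraries share treatments, depth and composition, so the values are a description. The choice also depended on the measure, and for Oxsr1 Spearman correlation picked Tspan3, R3hdm1 and Ubxn7 in place of the genes given here. By Pearson correlation, nearest to Oxsr1 were Sec24b (0.931), F2r (0.927) and Rap1gds1 (0.902), and nearest to Stk39 were Oip5 (0.852), Lrig3 (0.838) and Mrps25 (0.826). Cab39 moved most like Pak2 (0.946), Rab6a (0.938) and Chmp2b (0.938), and Cul3 like Cnot7 (0.93), Asnsd1 (0.907) and Tmtc3 (0.88). Wnk4 moved most like Stk11 (0.929), which is in the MO25 list, Thop1 (0.916) and Ankle1 (0.914). Cab39l moved most like Tmem123 (0.835), Stxbp3 (0.809) and Strada (0.789), the last of which encodes a pseudokinase that binds MO25 and is on the same list.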

How the data were processed

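The authors deposited raw fragment counts per gene name in 1 table per experiment. Per the file headers, featureCounts 1.5.0 made them from sorted STAR output, over exons, taking only pairs in which each end was placed and setting no strandedness or multi-mapping option. The submitters' processing notes also list FastQC and DESeq2. The headers and labels name neither a genome build nor a STAR version, so no positions are printed. The 6 members were matched by symbol to the RefSeq gene table. Counts of the row without a name were removed (0.0249% to 0.0445% of a library in the first experiment, 1.13% to 1.65% in the second).

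The experiments were modelled separately in R 4.3.3 with edgeR 4.0.16: TMM factors, filterByExpr (minimum count 10, minimum total 15), quasi-likelihood F tests on group, and Benjamini-Hochberg adjustment over all genes tested, called under 0.05. CPM values are TMM-scaled and relative to the counts of tested genes. Intervals are at 95%. Biological coefficients of variation were 7.04% and 6.06%, and 3 counts corresponded to 0.108 to 0.368 CPM. The tests were run on simulated data first. Alternatives were DESeq2 1.42.0, limma-voom (limma 3.58.1), relative log expression factors, other filters, removal of the length trend, fewer libraries, blocks and each library left out. The removal of 3 libraries was chosen after seeing the data.

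The members and lists were chosen with earlier results of these data known. The rule named the 6 members in every comparison, at most 3 called genes with the smallest p per list and comparison, and the 3 genes most correlated with each member. Klhl2 and Klhl3 are given outside that rule, as the adaptors that act on WNK kinases. The lists were other WNK kinases, WNK turnover, MO25 partners, Lrrc8 subunits, Sgk1, and fibroblast, T lymphocyte, myeloid and epithelial markers. For the Slc12 cotransporters single genes are given without counts over the list, and 1 result is not reported here.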

Additional observations from a re-analysis of the deposited data

Results flagged for a closer look

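The effect of apoptotic cells on Oxsr1 differed between phagocytes without and with cytochalasin D, by the test of that difference: log2 -0.216 (edgeR adjusted p = 0.044). The call was lost in 11 of 16 refits that left out 1 library (edgeR adjusted p up to 0.0932), with the length trend removed (edgeR adjusted p = 0.0836) and without the 3 outlying libraries (edgeR adjusted p = 0.309). Without the drug every library with apoptotic cells was below every control library, and with it the groups overlapped. The 36 sets of 4 libraries, 1 for each gene and group, were also searched for a library far from the other 3, and none passed that limit, where chance would give about 1 in 20.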

How the results depend on the processing

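Of 744 refits of the members' comparisons, 684 kept direction and side of the threshold, 35 lost a call, 8 gained one and 17 turned direction, all 17 in comparisons that passed no test. The lower Oxsr1 in 3 comparisons with control, Cab39 and Wnk4 for cytochalasin D with apoptotic cells, and Cab39l and Stk39 in Slc12a2-deficient cells kept their calls in every refit.

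Genes called for the difference between apoptotic cell effects numbered 598, 975 with DESeq2, 928 with no filter, 120 without the 3 outlying libraries (chosen after seeing the data) and 251 to 1645 with 1 library left out (lowest without apoptotic library 3, highest without cytochalasin D library 4). Without the 3 libraries, genes called for apoptotic cells under cytochalasin D went from 1129 to 662. Genes called for apoptotic cells against control were 1789, and 1103 to 1700 with 1 library left out (1103 without apoptotic library 3).

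For cytochalasin D with apoptotic cells, Stk39 was log2 -0.131 with no filter, -0.135 with the replicate block, -0.112 without the 3 libraries and -0.16 to -0.117 with 1 left out. Cul3 was 0.122 without the 3 libraries and 0.117 to 0.194 with 1 left out. Cab39l was -0.0055 and -0.0528 to 0.109, and Oxsr1 -0.0346 to 0.00147 with 1 left out. For the difference between effects, Oxsr1 was -0.16 with the length trend removed, -0.136 without the 3 libraries and -0.258 to -0.187 with 1 left out, and Cab39 -0.214 to -0.134. For both against control, Wnk4 was -0.29 with the replicate block, -0.285 in 8 libraries and -0.408 to -0.211 with 1 left out. Cab39 there was 0.152 without the 3 libraries and 0.154 to 0.203, and Stk39 0.0126 without the 3 libraries. Under cytochalasin D, apoptotic cells gave Oxsr1 -0.0456 and Wnk4 0.00762 without the 3 libraries, and with 1 left out Oxsr1 -0.0231 to 0.0465, Stk39 -0.0137 to 0.0368 and Cab39 0.0823 to 0.16. In deficient cells Cab39 was -0.117 with no filter and -0.136 to -0.102 with 1 left out, and Cul3 -0.127 with the library-number block and -0.159 to -0.0953. Spearman correlation chose 8 of the 18 most similar genes again. Apart from refits with fewer samples, the cause was not tested.

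Same-numbered libraries of the first experiment correlated between -0.0555 and 0.227 over 24 pairs. Of 16 libraries, 4 correlated best with their own number, so the numbers were not used as pairs in the main fit. Between the groups with cytochalasin D, however, same-numbered libraries gave 0.206 (number 1), 0.00618 (2), 0.0236 (3) and 0.227 (4). Cytochalasin D library 1 against library 4 with both gave -0.267, and library 4 against library 1 with both gave -0.222. Wnk4 also fell with the number in these groups, from 20.6 to 15.0 CPM with cytochalasin D and from 20.3 to 14.1 CPM with both. What the number stands for was not tested. With the replicate block, Wnk4 gained its call for both against control (edgeR adjusted p = 0.03). Stk39 lost its call for cytochalasin D with apoptotic cells (edgeR adjusted p = 0.0512). No other member's call changed with this block. Depth was not varied. Cab39l and Wnk4 had the fewest counts, from 100 and 134 fragments in their lowest libraries.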

Other observations

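Myeloid markers were near 0 throughout: their sum was at most 3.75 CPM in any library, with Cd68 the most abundant at 0.84 CPM in control and 2.25 CPM in cytochalasin D libraries. Of 6 epithelial markers, Krt18, Krt19 and Cldn4 were at 0 in the first experiment, and Cdh1 fell from 6.79 CPM in control to 1.05 CPM with cytochalasin D, as the list's 1 measured gene (edgeR adjusted p = 5.96e-09).

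Across the 16 libraries of the first experiment, Wnk4 and Cab39 ran in opposite directions (Pearson -0.852 of log2 CPM), as did Wnk4 and Cul3 (-0.643), while Cab39 and Cul3 ran together (0.791). Oxsr1 and Stk39, the paralogous kinases, were only weakly related (0.185), as were Oxsr1 and Wnk4 (-0.00665). In each group with cytochalasin D, library 4 held the lowest Wnk4 and the highest Cab39 and Cul3. These correlations are over libraries that share treatments and depth, and are given as a description.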
